A study of Mus musculus with 8 samples.

Results

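The expression of 10 genes of prostaglandin and leukotriene metabolism was compared between enalapril-treated and vehicle-treated mouse skin after UVB irradiation. The genes were Ptgs1, Ptgs2, Ptges, Ptgds, Ptgis, Hpgd, Alox12, Alox15, Alox5ap and Pla2g4a, and every array probe named for one of them or for a synonym was taken, which gave 16 of the 41174 probes and 10 of the 27677 gene names. The mice were male SKH-1 animals, a hairless strain. Their age was 6 weeks when the experiment began and 19 weeks by the sample labels. The backs of all 8 had been exposed to UVB over 10 weeks. From 1 week after the last exposure, 4 mice received 1% w/v enalapril maleate in 30% ethanol on the back and 4 received the ethanol alone (vehicle), in both groups 5 times a week for 2 weeks. Enalapril inhibits angiotensin-converting enzyme. Neither unirradiated skin nor skin without ethanol was analysed here, so every difference is drug plus ethanol against ethanol in irradiated skin. The design text speaks of a 6-week course and of 6 mice in a group as well, while the arrays labelled here are 4 per group after 2 weeks.

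Prostanoids and leukotrienes are lipid mediators made from arachidonic acid. A phospholipase A2 frees the acid from membranes, cyclooxygenases turn it into prostaglandin H2, and terminal synthases turn that into prostaglandin E2, D2 or F2alpha, prostacyclin or thromboxane, which act on their own receptors. In the other branch, 5-lipoxygenase and its activating protein make leukotriene A4, from which the cysteinyl leukotrienes and leukotriene B4 are formed, and the 12- and 15-lipoxygenases make hydroxylated fatty acids. In skin, prostaglandin E2 is a well known mediator of the erythema that follows UVB, and cyclooxygenase-2 is the inducible enzyme of that response.

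Levels below are log2 processed intensities relative to the 75th percentile of the same array, so a level of 0 is a probe as bright as that percentile, and levels of different probes are not set against each other. A change is the enalapril mean minus the vehicle mean on this scale, given with the standard error from limma, and n is 4 arrays per group throughout. The test took in probes that were well above background on 4 or more arrays, and a probe was called at a Benjamini-Hochberg adjusted p under 0.05 in the limma fit over all 28580 probes tested. On each array 67.1% to 72.7% of spots were well above background, no spot was saturated, and the 75th percentile lay between 821.5 and 1540 intensity units. The vehicle arrays shared one slide and one scan and the enalapril arrays another, so slide and scan cannot be told apart from the drug in any result. Median local background ranged from 57.5 to 66 units in vehicle and from 48 to 52 in enalapril. Enalapril 4 stood apart: its mean distance to the other arrays of its group was 115.8, against 81.5 to 91.8 for the other enalapril arrays and 67.8 to 73.0 for the vehicle arrays. Basal keratinocyte, differentiated keratinocyte and dermal fibroblast markers, 6 genes each, each had a tested probe. In whole skin, fewer cells of a type and less RNA per cell cannot be told apart.

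Promoter sequence is shown for both cyclooxygenases and for Ltc4s, because Ptgs1 was even and Ptgs2 uneven between mice of a group, and because Ltc4s had the lowest change of the leukotriene genes. The sequences are from RefSeq, build GRCm38.p6, and run 5′ to 3′ on the strand of the gene. They reach from 250 bases before the annotated transcription start to 30 after it. An entry was found for 7 of the 10 genes. Capitals mark matches, on either strand, to 6 motifs: E-box CACGTG, the CGTCA core of the cyclic AMP response element, the sequence GGGCGG of the GC box, the letters CCAAT and the letters TATAAA of the boxes so named, and the palindrome TTGCGCAA that C/EBP factors bind. They are in lower case elsewhere.
Ptgs1, chr2:36230176-36230455, plus strand: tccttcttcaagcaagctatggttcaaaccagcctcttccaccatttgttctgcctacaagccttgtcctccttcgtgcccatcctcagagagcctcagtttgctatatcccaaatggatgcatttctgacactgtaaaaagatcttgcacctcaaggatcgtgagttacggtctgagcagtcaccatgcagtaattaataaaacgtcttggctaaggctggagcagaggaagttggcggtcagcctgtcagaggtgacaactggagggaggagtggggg
Ptgs2, chr1:150099781-150100060, plus strand: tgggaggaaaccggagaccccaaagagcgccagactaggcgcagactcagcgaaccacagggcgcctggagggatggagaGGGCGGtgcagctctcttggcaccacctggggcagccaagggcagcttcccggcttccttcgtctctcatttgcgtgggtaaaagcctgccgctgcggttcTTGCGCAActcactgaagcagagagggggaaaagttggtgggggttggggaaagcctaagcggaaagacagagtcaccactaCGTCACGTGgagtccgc
Ltc4s, chr11:50238503-50238782, minus strand: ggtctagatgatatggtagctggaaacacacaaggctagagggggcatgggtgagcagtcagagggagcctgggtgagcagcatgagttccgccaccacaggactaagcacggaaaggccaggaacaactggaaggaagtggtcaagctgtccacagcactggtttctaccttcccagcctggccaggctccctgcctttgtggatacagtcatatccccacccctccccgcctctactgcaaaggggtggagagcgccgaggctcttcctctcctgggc
The Ptgs2 window held 4 of the motifs, 1 match each. The GC box began 170 bases before the annotated start (−170) and the C/EBP palindrome at −69. The response element core at +14 and the E-box at +17 overlapped within the 30 bases after that start. Where transcription begins in this skin was not measured, so the positions hold for the annotated start only. The C/EBP palindrome was the rarest of them, present in 0.18% of the 32851 windows of 280 bases, against 6.79% for the E-box, 19.9% for the response element core and 34.7% for the GC box. The Ptgs1 and Ltc4s windows held none of the 6, including the CCAAT and TATA boxes, which 36.1% and 13.1% of windows hold. A match is a run of letters and not a measured binding site.

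Of the 16 probes, 14 were tested, at least 1 for each of the 10 genes. The 2 left out carry clone accessions, A_52_P859480 for Hpgd and A_52_P819886 for Alox12, and were well above background on 0 arrays of either group. Among the 14, 2 fell and 0 rose: Ptgis, prostacyclin synthase, and Alox5ap, the 5-lipoxygenase activating protein. Over all probes tested, 10.4% were called, 6.61% as lower in enalapril and 3.82% as higher. At an unadjusted p under 0.05 in limma, 6 of the 14 were lower and 1 higher, against 18% and 11.4% of all probes (29.4% in all). In 4 of the 14 every enalapril array lay below every vehicle array (Ptgs1, Ptgis, Alox5ap and 1 probe of Alox12), and in 0 above. Over all probes 13.1% were separated in that lower direction and 7.12% in the higher one, 20.2% in all. The median change of the 14 was −0.17, that of all probes −0.05, and 28.6% of the 14 against 44.5% of all probes had a change above 0. The split of all calls depended on scaling: 36.6% of called probes were higher as reported, 46.7% after quantile normalization, 45.6% after normexp background correction and quantile normalization, and 4.27% and 4.97% in 2 scalings that moved the median of all probes to −0.39 and −0.41, namely centring on E1A spike-in controls and the deposited matrix as it stands. In those 2 scalings every change is lower than reported by one common shift, so the order of the changes is as given here.

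**Figure D1:**
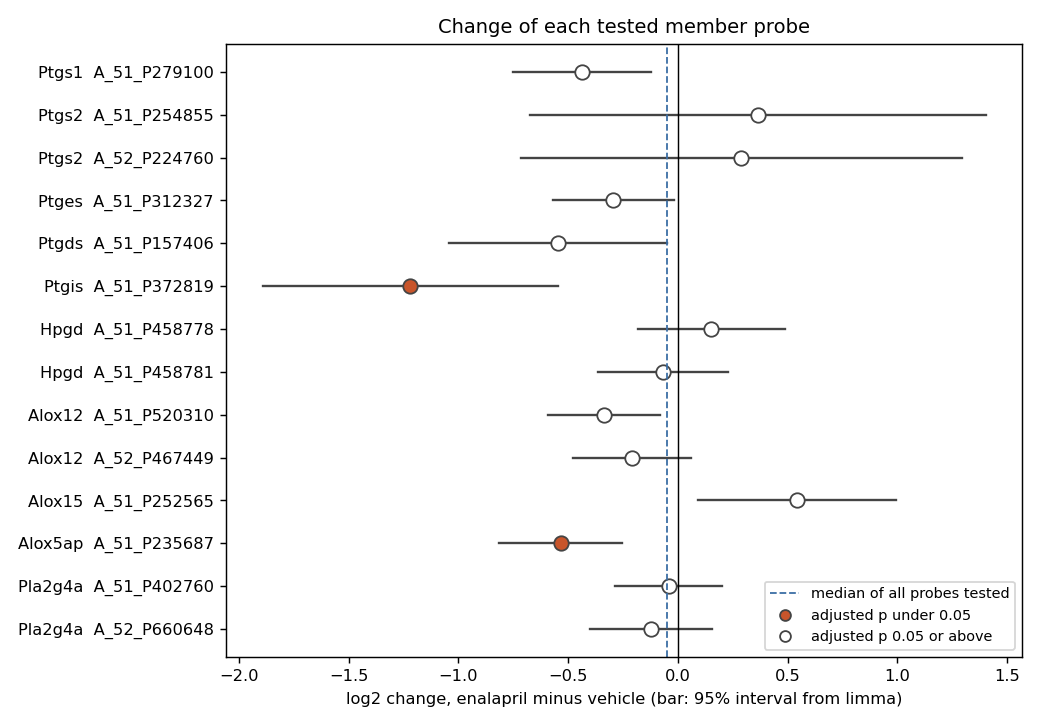
Log2 change, enalapril minus vehicle, of each of the 14 tested probes (horizontal axis), with its 95% interval from limma (bar). Filled points have an adjusted p under 0.05 and the dashed line is the median of all probes tested, −0.05. Ptgis and Alox5ap are the filled points, both below 0, and the 2 Ptgs2 probes have intervals reaching from −0.67 and −0.72 to 1.40 and 1.29.

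Pla2g4a encodes the cytosolic phospholipase A2 that supplies arachidonic acid to both branches, and it did not pass the test on either of its probes. On A_51_P402760 the vehicle levels were 0.24, 0.33, 0.35 and 0.38 and the enalapril levels 0.37, 0.40, 0.31 and 0.04. The groups overlapped, and enalapril 4 was the lowest array. The change was −0.04 ± 0.11, with a 95% interval from −0.29 to 0.20 and an adjusted p of 0.825 (limma). The other probe, A_52_P660648, had vehicle levels of −0.81, −0.64, −0.69 and −0.52 and enalapril levels of −0.71, −0.65, −0.72 and −1.06. Enalapril 4 was again the lowest, and the change of −0.12 ± 0.12 did not pass (adjusted p = 0.547, limma).

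Among the other phospholipases A2, 12 of the 16 listed genes had a tested probe, and 0 of their 15 tested probes passed in either direction in limma (3 lower and 0 higher at an unadjusted p under 0.05), with a median change of −0.15. Pla2g12a, a secreted phospholipase A2, was separated between the groups on both probes, with changes of −0.46 ± 0.14 and −0.39 ± 0.13 and adjusted p of 0.0694 and 0.0794 (limma). Of 3 probes of Pla2g4b, a cytosolic phospholipase A2, 1 was separated in the same direction (−0.65 ± 0.20, adjusted p = 0.0708, limma), while the others had changes of 0.01 and −0.13. Pla2g2d and Pla2g5, secreted members, had changes of −0.51 ± 0.28 and −0.27 ± 0.22 with overlapping groups, at adjusted p of 0.264 and 0.457 (limma).

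The cyclooxygenases differed in how evenly they were measured. Ptgs1, the constitutive cyclooxygenase-1, had vehicle levels of 2.42, 2.67, 2.51 and 2.72 and enalapril levels of 1.94, 1.95, 2.31 and 2.38. Every enalapril mouse lay below every vehicle mouse, with enalapril 4 and vehicle 1 nearly touching. The means were 2.58 ± 0.14 (SD, n = 4) and 2.14 ± 0.23 (SD, n = 4), a change of −0.44 ± 0.14 or 1.35-fold. It did not pass the test (adjusted p = 0.0784, limma, 95% interval −0.75 to −0.12). Of 11 other settings, 2 took it past the threshold, an intensity trend with robust estimation (adjusted p = 0.0492) and array weights (0.0114), as did leaving out enalapril 4 (change −0.51, 0.0283). Array weights called 29.9% of all probes, and the fit without enalapril 4 called 24.7%.

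Ptgs2, the inducible cyclooxygenase-2, was dim and varied more between mice of one group than between the groups. The design carries A_51_P254855 in 10 spots, whose mean level was −4.58, −5.29, −5.37 and −6.03 on the vehicle arrays and −4.58, −4.11, −4.92 and −6.20 on the enalapril arrays. Enalapril 2 was the highest mouse and enalapril 4 the lowest of all 8. The second probe, A_52_P224760, gave −4.28, −5.32, −5.00 and −5.59 in vehicle and −4.52, −3.86, −4.71 and −5.95 in enalapril, again with enalapril 2 at the top and enalapril 4 at the bottom. The SD between mice was 0.59 (vehicle, n = 4) and 0.90 (enalapril, n = 4) on the first probe, while the SD among the 10 spots of an array was 0.109 to 0.504. All 10 spots were well above background on 6 arrays, 2 of 10 on vehicle 4 and 7 of 10 on enalapril 4.

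The Ptgs2 change was 0.37 ± 0.46 on the first probe and 0.29 ± 0.44 on the second, and neither passed (adjusted p = 0.632 and 0.704, limma). The 95% intervals, −0.67 to 1.40 and −0.72 to 1.29, include both a rise and a fall of the gene, so the data do not fix a direction. Without enalapril 4 the changes were 0.78 and 0.68, and without enalapril 2 they were 0.08 and −0.01. In the scaling on E1A controls they were 0.03 and −0.05, against an all-probe median of −0.39 in that scaling.

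**Figure D2:**
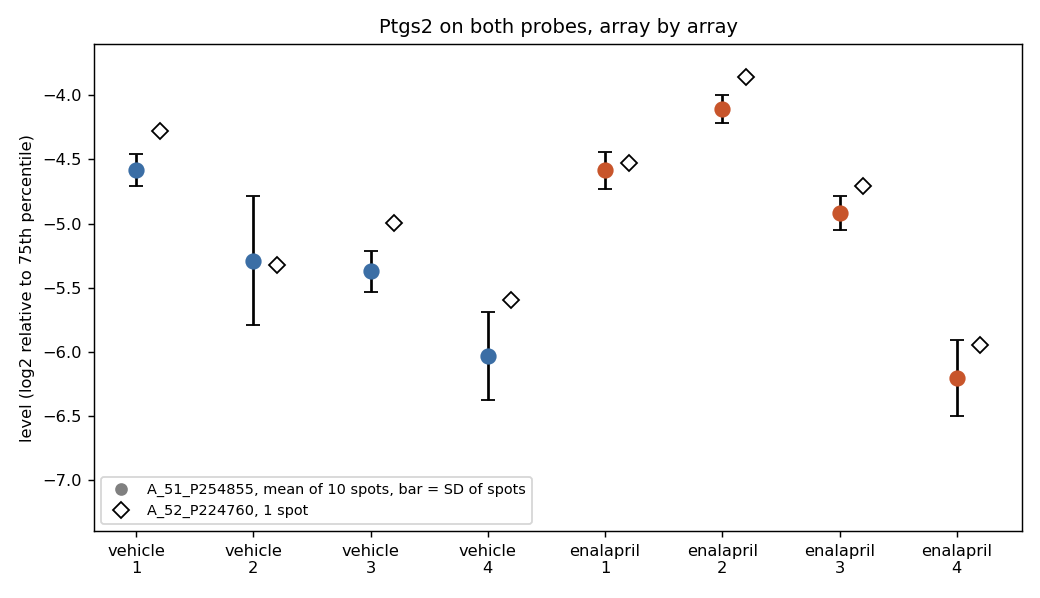
Ptgs2 level on each array (vertical axis, log2 relative to the array's 75th percentile). Filled points are the mean of the 10 spots of A_51_P254855 with the SD among spots, and open diamonds the single spot of A_52_P224760. Both probes put enalapril 2 highest and vehicle 4 and enalapril 4 lowest, and spot SDs run from 0.109 to 0.504.

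Of the terminal synthases among the members, prostacyclin synthase was lower in enalapril and the E and D synthases were not called. Ptgis, which makes prostacyclin in vessel walls, had vehicle levels of −3.22, −3.94, −4.05 and −3.97 and enalapril levels of −5.66, −4.68, −5.29 and −4.43. The groups did not overlap, vehicle 1 stood above the other 3 vehicle mice, and enalapril 4 was the enalapril mouse nearest to them. The means were −3.80 ± 0.39 (SD, n = 4) and −5.02 ± 0.56 (SD, n = 4). Expression fell by 1.22 ± 0.30 on the log2 scale, or 2.33-fold (95% interval −1.89 to −0.55, adjusted p = 0.0377, limma), and the probe ranked 2114 by p among all tested. The probe is dim, with processed intensities of 56.4 or more in vehicle and 21.0 to 40.6 in enalapril, and was well above background on all 8.

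The Ptgis call is near the threshold. With normexp background correction the change was −0.49 and still passed (adjusted p = 0.0488). The call was lost without the filter on dim probes (0.0657) and when any array other than enalapril 4 was left out (adjusted p 0.0600 to 0.0971, changes −1.33 to −1.01). Without enalapril 4 it was −1.41 (0.0122).

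Markers of the cells that line and wrap vessels were read beside Ptgis. Of the smooth muscle markers 1 of 10 tested probes fell, a probe of Tagln (−0.52 ± 0.10, adjusted p = 0.0238, limma), and 0 rose. Of all probes, 6.61% were called lower and 3.82% higher, and at an unadjusted p under 0.05 in limma 18% were lower and 11.4% higher. The other probe of Tagln had a change of −0.16 ± 0.10 (adjusted p = 0.297). At that unadjusted threshold, 3 smooth muscle probes were lower and 2 higher, the latter a probe of Myh11 (0.36 ± 0.15, adjusted p = 0.159) and one of Rgs5 (0.44 ± 0.14, adjusted p = 0.0848). The list median was −0.21. The summed level of the list was 3.002 to 3.401 in vehicle and 2.716 to 2.955 in enalapril, with no overlap. No share over all probes was computed for separation in a summed level. Bright probes weigh most in a summed level, among them A_51_P450957 and A_52_P420504 of Acta2. Their changes were −0.31 ± 0.17 and −0.36 ± 0.10 (adjusted p = 0.266 and 0.0512, limma). In the brightest of 5 equal classes of mean intensity, the median change of all probes was −0.17 as reported and −0.027 after quantile normalization. The part of that shift in the summed level was not tested. The dimmer tested probes of Acta2 gave 0.12 ± 0.14 and −0.34 ± 0.12. The endothelial list had 0 of 9 probes called in limma (1 lower at an unadjusted p under 0.05), a median of 0.11 and a summed level of 0.57 to 0.76 in vehicle and 0.49 to 0.96 in enalapril. All defining genes of both lists had a probe well above background on all 8 arrays. The part of smooth muscle RNA in the Ptgis change was not tested.

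Ptges encodes the microsomal prostaglandin E synthase-1, which works with cyclooxygenase-2. Its vehicle levels were 1.74, 1.77, 2.00 and 1.61 and its enalapril levels 1.42, 1.51, 1.67 and 1.34. Only enalapril 3 reached into the vehicle range, and the change of −0.29 ± 0.12 did not pass (1.23-fold, 95% interval −0.57 to −0.02, adjusted p = 0.147, limma). Ptgds, the lipocalin-type prostaglandin D synthase, had vehicle levels of −1.67, −1.43, −1.97 and −2.25 and enalapril levels of −2.53, −2.59, −2.49 and −1.88. The other 3 enalapril mice lay below all vehicle mice and enalapril 4 lay among them. The change of −0.55 ± 0.22 did not pass (1.46-fold, adjusted p = 0.138, limma). Without enalapril 4 it was −0.71 and did (adjusted p = 0.0309), as it did with array weights (−0.78, 0.0133). Those fits called 24.7% and 29.9% of all probes.

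**Figure D3:**
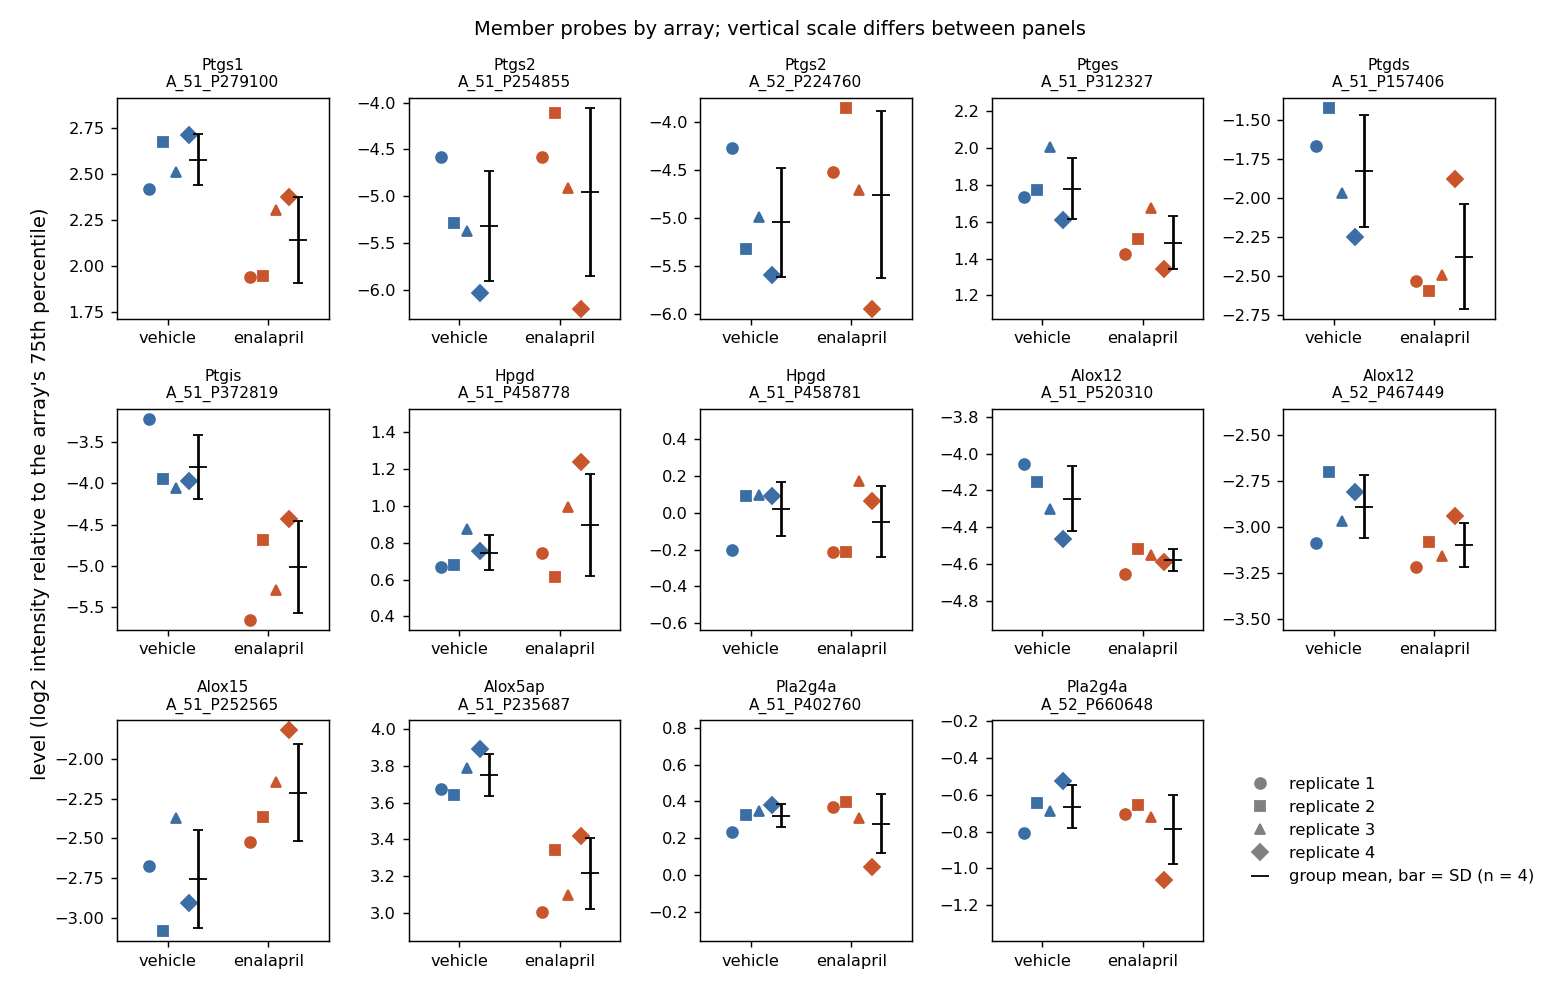
Level on each array (vertical axis, log2 intensity relative to the array's 75th percentile, scale differing between panels) for each tested probe, with the group mean and SD (n = 4). Vehicle and enalapril points are apart for Ptgs1, Ptgis, Alox5ap and A_51_P520310 of Alox12, and overlap for the other 10 probes.

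The other prostanoid synthases had 3 of 10 tested probes lower and 0 higher, against 6.61% and 3.82% of all probes, with a median change of −0.34. At an unadjusted p under 0.05 in limma, 5 were lower and 0 higher, against 18% and 11.4% of all probes. Prxl2b, prostamide/prostaglandin F synthase, fell most. Its levels were 5.11, 5.30, 5.13 and 5.34 in vehicle and 4.39, 4.52, 4.50 and 4.45 in enalapril, so that the groups lay well apart and each was tight. The change was −0.76 ± 0.10 (1.69-fold, adjusted p = 0.0108, limma), and it stayed past the threshold whichever array was left out (adjusted p up to 0.0411). Prxl2b passed in 10 of 11 other settings and lost the call with the replicate number as a block (adjusted p = 0.0618, limma). Akr1b3, an aldose reductase that also makes prostaglandin F2alpha, fell on 1 of 2 tested probes (−0.45 ± 0.11, adjusted p = 0.0440, limma), and the other had nearly the same change (−0.43 ± 0.13, adjusted p = 0.0718). Cbr1, a carbonyl reductase that converts prostaglandin E2 to F2alpha, fell by 0.40 ± 0.10 (adjusted p = 0.0452, limma). Akr1b3 and Cbr1 lost the call when any array other than enalapril 4 was left out (adjusted p up to 0.113 and 0.115). Akr1b3 kept it in 4 of 10 other settings and Cbr1 in 4 of 11, both losing it after quantile normalization (0.105 and 0.120), median centring (0.0731 and 0.0755), centring on E1A controls (0.0509 and 0.0653), in the deposited matrix (0.105 and 0.123) and without the filter on dim probes. The change of Cbr1 was −0.25 after quantile normalization. All 3 called probes are in the brightest of 5 equal classes of mean intensity, where 702 of 5716 probes were called lower and 42 higher. Ptges2, the microsomal prostaglandin E synthase-2, had a change of −0.37 ± 0.12 with overlapping groups (adjusted p = 0.0909, limma).

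On the receptor side, 1 of 11 tested probes rose and 0 fell, against 3.82% and 6.61% of all probes, with a median change of 0.03. At an unadjusted p under 0.05 in limma, 1 was higher and 2 lower, against 11.4% and 18% of all probes. The probe that rose is for Ptgir, the prostacyclin receptor. On A_52_P681368 its levels were −4.98, −4.80, −5.07 and −5.14 in vehicle and −4.18, −4.42, −4.15 and −4.35 in enalapril, without overlap. The change was 0.73 ± 0.12 (1.65-fold, adjusted p = 0.0157, limma). The other probe of the gene, A_51_P202408, did not show it: levels were −0.67, −0.70, −1.11 and −1.17 in vehicle and −0.59, −0.65, −1.14 and −0.65 in enalapril (0.16 ± 0.17, adjusted p = 0.589, limma). The 2 probes of Ptgir thus disagree, and the one that rose is in the dimmest intensity class. Its change was 0.34 after normexp with quantile normalization (adjusted p = 0.0254, limma). In the 2 scalings that shifted the median of all probes it was 0.39 and 0.36 and not called (adjusted p = 0.244 and 0.448), against a median of −0.39 and −0.41. The Ptgir call was also lost with the replicate number as a block.

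None of the 4 prostaglandin E2 receptors passed. The change was −0.70 ± 0.26 for Ptger1 (adjusted p = 0.115), 0.40 ± 0.27 for Ptger2 (0.367), 0.03 ± 0.19 and 0.08 ± 0.13 on 2 probes for Ptger3 (0.927 and 0.730) and 0.05 ± 0.24 for Ptger4 (0.905), all from limma. All 4 had overlapping groups. Ptgdr2, a prostaglandin D2 receptor, had a change of −0.32 ± 0.12 (adjusted p = 0.126, limma) and Ptgfr, the prostaglandin F2alpha receptor, one of −0.24 ± 0.15 on the probe with the smaller p (0.319).

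Breakdown of prostaglandins starts with Hpgd, 15-hydroxyprostaglandin dehydrogenase. On A_51_P458778 its levels were 0.67, 0.68, 0.88 and 0.75 in vehicle and 0.74, 0.61, 1.00 and 1.24 in enalapril, with enalapril 4 the highest. On A_51_P458781 they were −0.20, 0.09, 0.10 and 0.09 in vehicle and −0.21, −0.21, 0.17 and 0.06 in enalapril, where vehicle 1 was the low vehicle array. The groups overlapped on both, and the changes of 0.15 ± 0.15 and −0.07 ± 0.13 did not pass (adjusted p = 0.524 and 0.764, limma). Of the genes for transport and further breakdown, 1 of 9 tested probes was lower and 0 higher, against 6.61% and 3.82% of all probes, with a median of −0.20. At an unadjusted p under 0.05 in limma, 1 was lower and 1 higher, against 18% and 11.4% of all probes. The called probe is one of Ptgr2, which reduces 15-keto prostaglandins (−0.36 ± 0.09, adjusted p = 0.0362, limma). The other tested probe of Ptgr2 had a change of 0.18 ± 0.14 (adjusted p = 0.410). The Ptgr2 call was lost when any array other than enalapril 4 was left out (adjusted p up to 0.0976) and in 5 of 11 other settings, among them median centring (0.0699), centring on E1A controls (0.0650) and the deposited matrix (0.141). Abcc4, an exporter of prostaglandins, had changes of 0.56 ± 0.20 on one probe and −0.20 ± 0.14 on the other (adjusted p = 0.103 and 0.388, limma). Slco2a1, the prostaglandin uptake carrier, gave −0.21 ± 0.12 (0.264) and 0.17 ± 0.12 (0.382), and Ephx2, soluble epoxide hydrolase, −0.25 ± 0.13 (0.231).

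In the leukotriene branch, the activating protein of 5-lipoxygenase and leukotriene C4 synthase were lower in enalapril. Alox5ap, which presents arachidonic acid to 5-lipoxygenase at the nuclear membrane, had levels of 3.68, 3.64, 3.79 and 3.89 in vehicle and 3.01, 3.34, 3.10 and 3.42 in enalapril. The groups did not overlap, and enalapril 2 and enalapril 4 lay nearest to the vehicle range. The means were 3.75 ± 0.11 (SD, n = 4) and 3.22 ± 0.19 (SD, n = 4). It fell by 0.53 ± 0.12 or 1.45-fold (95% interval −0.81 to −0.25, adjusted p = 0.0341, limma), with rank 1763 by p.

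The Alox5ap fall kept its direction in all 11 other settings and in all 8 fits with an array left out, but passed in 5 of the 11 and 1 of the 8. It was not called after quantile normalization (−0.36, adjusted p = 0.0907), normexp (−0.38, 0.0530), median centring (0.0527), in the deposited matrix (0.0731) or without the filter on dim probes (0.0618). When any array other than enalapril 4 was left out, adjusted p lay between 0.0663 and 0.0873. Without enalapril 4 it was −0.60 (0.0123). In the 2 scalings with shifted medians it was −0.87 and −0.90. The probe is in the brightest of the 5 intensity classes, as are Ptgs1 and Ptges. The median change of that class was −0.17, and after quantile normalization 218 were lower and 105 higher.

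Ltc4s, which joins leukotriene A4 to glutathione, had levels of 0.33, 0.32, 0.27 and 0.11 in vehicle and −0.97, −0.68, −0.88 and −0.17 in enalapril. The vehicle mice were close together, and enalapril 4 stood between them and the other enalapril mice. It fell by 0.93 ± 0.17 (1.91-fold, adjusted p = 0.0206, limma), the lowest change in the leukotriene synthesis list. It was called in 3 of 8 fits with an array left out, those without enalapril 4, vehicle 3 or vehicle 4, and missed the threshold in the other 5 (adjusted p up to 0.0616). Its change ran from −1.30 to −0.85 in the other settings. Ltc4s was called in 10 of 11 of them and lost the call with the replicate number as a block (adjusted p = 0.0703, limma).

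The remaining leukotriene genes were not called. In all, 1 of 11 tested probes of this list was lower and 0 higher, against 6.61% and 3.82% of all probes, and the median was −0.26. At an unadjusted p under 0.05 in limma, 5 were lower and 0 higher, against 18% and 11.4% of all probes. Alox5, 5-lipoxygenase itself, was separated between groups on 2 of 3 probes without passing. On A_51_P247249 its levels were 1.74, 1.78, 1.69 and 1.83 in vehicle and 1.37, 1.45, 1.35 and 1.63 in enalapril, a change of −0.31 ± 0.10 (adjusted p = 0.0833, limma). The others gave −0.26 ± 0.10 (0.128) and 0.07 ± 0.12 (0.736). Lta4h, the hydrolase that makes leukotriene B4, lay above vehicle in every enalapril mouse, at 0.60, 0.58, 0.58 and 0.55 against 0.75, 0.80, 0.82 and 0.68, but its change of 0.19 ± 0.08 did not pass (adjusted p = 0.181, limma) and was −0.15 in the scaling on E1A controls, against an all-probe median of −0.39. Ggt5 and Dpep1, which trim leukotriene C4 to D4 and E4, had changes of −0.44 ± 0.15 and −0.41 ± 0.15 (adjusted p = 0.0933 and 0.110, limma). The second probe of Ggt5 gave 0.14 ± 0.15.

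The leukotriene receptors had 0 of 5 tested probes called in limma, 0 also at an unadjusted p under 0.05, and a median of −0.05. Cysltr1, a cysteinyl leukotriene receptor, had changes of 0.23 ± 0.22 and 0.02 ± 0.12 on 2 probes, and Cysltr2 one of −0.13 ± 0.20. The leukotriene B4 receptors Ltb4r1 and Ltb4r2 had changes of −0.05 ± 0.14 and −0.10 ± 0.15. Adjusted p ran from 0.523 to 0.916 (limma).

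Markers of the leukocytes that carry the 5-lipoxygenase system were not called beside Alox5ap and Ltc4s. The macrophage list had 0 of 9 probes called, a median of −0.14 and a summed level of 2.69 to 2.88 in vehicle and 2.53 to 2.94 in enalapril. Of the mast cell list 0 of 8 were called, the median was −0.15 and the summed level 1.84 to 2.54 against 1.43 to 2.50. For neutrophils 0 of 5 were called, with a median of 0.20 and summed levels of 1.81 to 3.53 against 2.24 to 2.89. All 3 ranges overlapped between groups. At an unadjusted p under 0.05 in limma, 3 macrophage probes were lower and 1 higher, 1 neutrophil probe was higher, and 0 mast cell probes were either. Of all probes, 18% were lower and 11.4% higher at that threshold. Ngp, a neutrophil granule gene, was well above background on 1 array per group and Ly6g was not analysed. The part of each cell type in the Alox5ap and Ltc4s changes was not tested.

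The 12- and 15-lipoxygenases were not called. Alox12, the platelet-type 12-lipoxygenase, had levels on A_51_P520310 of −4.06, −4.15, −4.30 and −4.47 in vehicle and −4.66, −4.52, −4.55 and −4.59 in enalapril. These did not overlap, vehicle 4 lying closest to the enalapril mice, and the change was −0.34 ± 0.11 (adjusted p = 0.0892, limma). On A_52_P467449 they were −3.09, −2.70, −2.97 and −2.81 in vehicle and −3.22, −3.08, −3.16 and −2.94 in enalapril, overlapping, with a change of −0.21 ± 0.12 (adjusted p = 0.272, limma). Array weights, which called 29.9% of all probes, took the first probe past the threshold (adjusted p = 0.0342).

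Alox15, the 12/15-lipoxygenase of macrophages and eosinophils, had the only change above 0.5 among the members. Its levels were −2.67, −3.08, −2.37 and −2.91 in vehicle and −2.52, −2.37, −2.14 and −1.82 in enalapril. Vehicle 3 lay within the enalapril range, and the other 3 vehicle mice below all enalapril mice. The change of 0.54 ± 0.20 (1.46-fold, 95% interval 0.09 to 0.99) did not pass (adjusted p = 0.111, limma). It passed with array weights (0.49, adjusted p = 0.0429), where 29.9% of all probes were called, and was 0.20 and 0.18 in the 2 scalings with shifted medians.

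Platelets carry both Ptgs1 and Alox12, and of the platelet markers 1 of 5 tested probes was lower, that of Gp9 (−0.88 ± 0.17, adjusted p = 0.0238, limma), 0 were higher, and the median was −0.49. The summed level was 2.38 to 2.76 in vehicle and 1.79 to 2.39 in enalapril. Gp9 was well above background on 4 vehicle and 2 enalapril arrays, and Gp6 on 2 and 1. The part of platelets in the Ptgs1 and Alox12 values was not tested. Skeletal muscle markers had 3 of 8 probes lower (median −0.68, summed level 5.23 to 6.25 in vehicle and 5.14 to 5.55 in enalapril). Adipocyte markers had 3 of 7 lower (median −0.54, summed level 4.64 to 5.07 and 4.19 to 4.66). Both had 0 probes higher, and their part was likewise not tested. Of all probes 6.61% were called lower. At an unadjusted p under 0.05 in limma, 3 platelet, 5 skeletal muscle and 5 adipocyte probes were lower and 0 higher, against 18% and 11.4% of all probes. Of the other skin lists, 1 of 11 basal keratinocyte probes rose (of Trp63, 0.77 ± 0.20, adjusted p = 0.0437), as did 1 of 11 fibroblast probes (of Col1a1, 0.89 ± 0.21, adjusted p = 0.0365), in limma. Of all probes 3.82% were called higher. The other 2 probes of Trp63 had changes of 0.35 ± 0.10 and 0.47 ± 0.24 (adjusted p = 0.0644 and 0.234), and the other 2 of Col1a1 changes of 0.039 ± 0.18 and −0.0073 ± 0.29 (0.909 and 0.990). Of the lists left, 0 of 8 differentiated keratinocyte and 0 of 7 sebocyte probes were called, 0 of both also at an unadjusted p under 0.05 (limma).

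The epidermal lipoxygenases had 0 of 5 tested probes called in limma (1 lower at an unadjusted p under 0.05) and a median of 0.05. Aloxe3 and Alox12b, which build the lipid barrier of the cornified layer, had changes of −0.38 ± 0.12 (adjusted p = 0.0838) and of 0.39 ± 0.20 and 0.05 ± 0.19 on 2 probes (0.228 and 0.890). Alox12e, the epidermal 12-lipoxygenase, had a change of 0.32 ± 0.17 (0.247) and Alox8, an 8-lipoxygenase, one of −0.13 ± 0.58 (0.904), all from limma. Groups overlapped on all 5 probes.

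**Figure D4:**
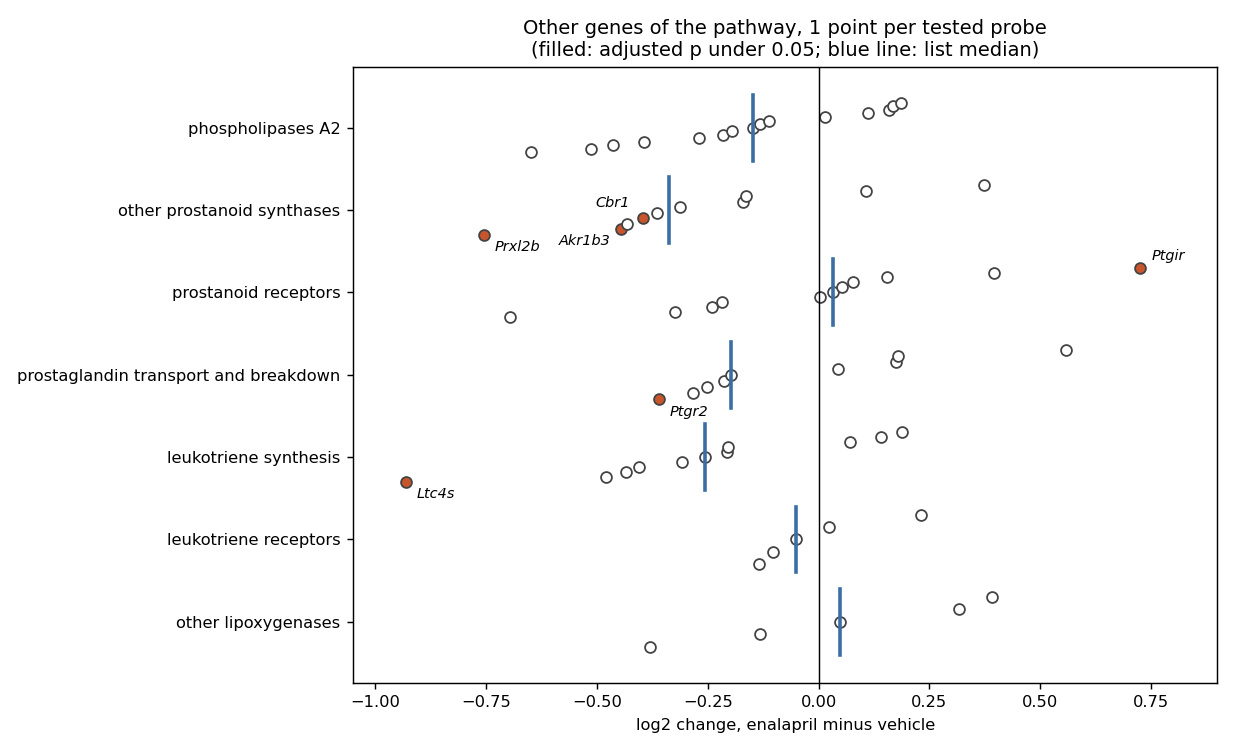
Log2 change, enalapril minus vehicle, of each tested probe in 7 lists of other pathway genes (horizontal axis), with list medians as blue lines and adjusted p under 0.05 filled. The filled points are Prxl2b, Akr1b3, Cbr1, Ptgr2 and Ltc4s below 0 and 1 of 2 probes of Ptgir above 0.

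Leaving out single arrays showed how far the calls rest on these 8 mice. Without enalapril 4, the array that stood apart, 4 member probes were lower (Ptgs1, Ptgds, Ptgis and Alox5ap), in a fit that called 24.7% of all probes, 13.2% as lower. Without any other single array, 0 member probes were called in limma, while between 410 and 1733 of the 28580 probes tested were. At an unadjusted p under 0.05 in limma, 4 to 6 member probes were lower and 0 or 1 higher in those 7 fits. The share of all probes at that threshold was not computed for those fits, so these member counts are given as values only. Array weights give less weight to an array with a larger estimated variance. With them, 6 were called (Ptgs1, Ptgds, Ptgis, Alox5ap and 1 probe of Alox12 lower, Alox15 higher), against 29.9% of all probes. The direction of Ptgs1, Ptges, Ptgds, Ptgis, both probes of Alox12, Alox15 and Alox5ap was the same in each of these fits.

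**Figure D5:**
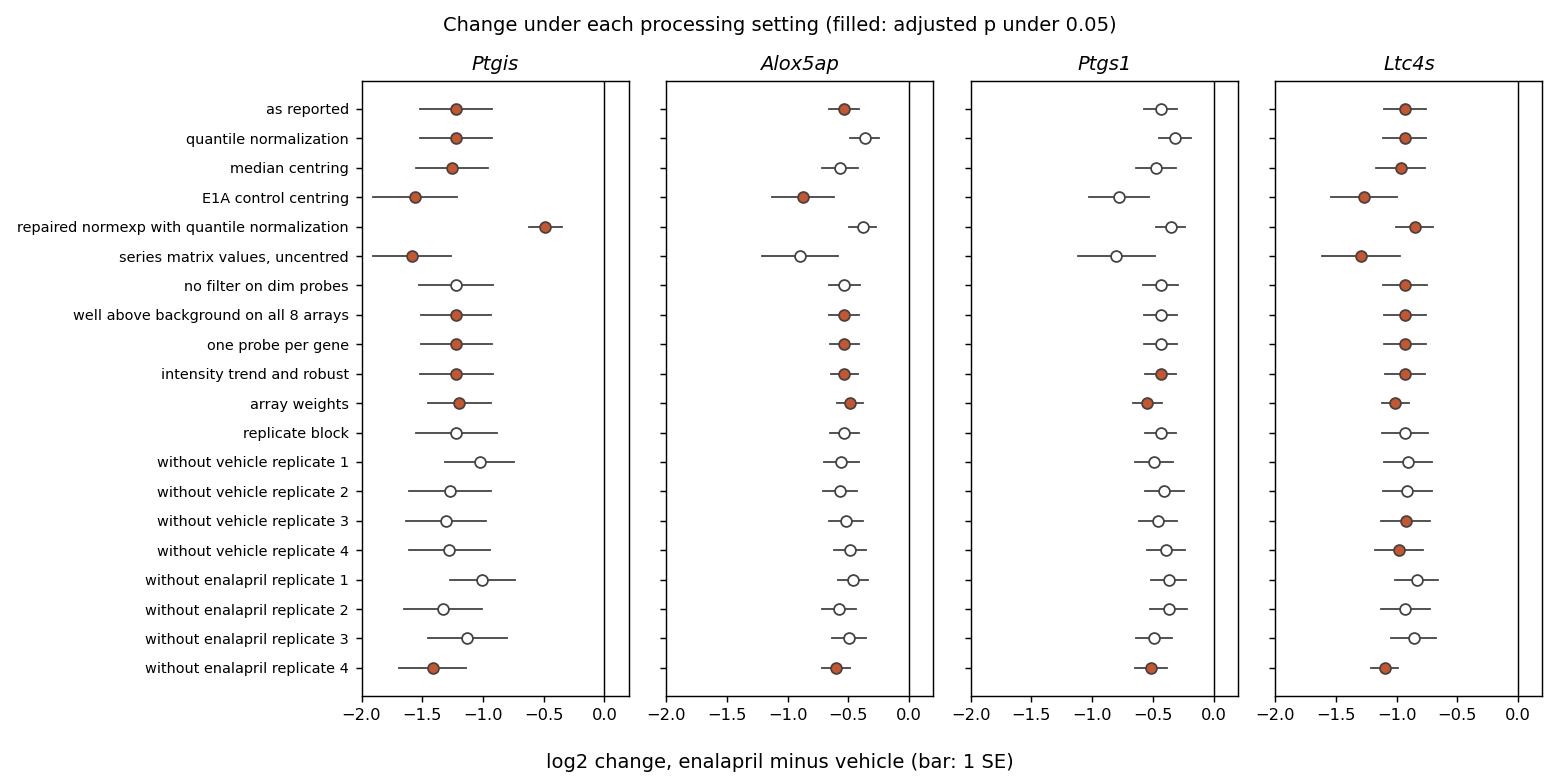
Log2 change of Ptgis, Alox5ap, Ptgs1 and Ltc4s (horizontal axis, bar 1 SE) as reported, under 11 other processing settings and with each array left out. All points lie below 0, and filled points have an adjusted p under 0.05. Ptgis and Alox5ap are filled in 1 of the 8 fits with an array left out, the one without enalapril 4.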

How the data were processed

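Dorsal skin RNA of 8 mice, labelled as biological replicates, 4 per group, was read on Agilent mouse arrays in 1 colour (Cy3). The scanner files hold spot intensity on a linear scale, made with Agilent Feature Extraction 9.1.3.1 per the file headers (9.1 per the submitters' processing notes). The processed intensity was background-subtracted within each array and not scaled between arrays, per the file headers. The deposited flags of the same software (well above background, outlier) were used to filter spots and probes. Values in the deposited series matrix are on a log2 scale and matched the log2 of the processed intensity without centring, with array medians of 6.39 to 7.30. Further processing by the authors is not given in the sources used here.

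Spots with an outlier flag were dropped, repeat spots of a probe were averaged as log2 values, and the log2 75th percentile of each array over non-control spots was subtracted. A probe counted as well above background on an array when at least 0.5 of its kept spots did. Of 41174 probes, 47 were left out because each of their spots was flagged on some array, and 28580 were tested. The limma 3.58.1 model (lmFit and eBayes, R 4.3.3, version 1.17.8 of the data.table package) had the group as its only term, with two-sided tests and Benjamini-Hochberg adjustment over all tested probes. It was checked on simulated data. The number of arrays limits the precision. Probe names were updated through a RefSeq table of GRCm38.p6, by accession for 22951 probes, symbol for 6659 and synonym for 3096, while 8468 kept the file's name. For 14 of the 16 member probes the accession named the same gene, and 2 carry clone accessions. Prxl2b is 2810405K02Rik in the files. The array files name no genome build, so gene coordinates are given for promoters from RefSeq only.

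A list's summed level is the log2 of the mean linear level of its probes on an array. All members were named, and in each pathway list the genes past the threshold and up to 4 genes with the smallest p, together with Ptger1 to Ptger4, Alox5, Ltc4s and Lta4h. The marker genes were named where called, except in the skeletal muscle and adipocyte lists, and some that were not called were named beside them. The members and the lists were chosen with earlier results of these data known. The alternatives were quantile normalization, median centring, centring on E1A control probes, normexp (offset 50) with quantile normalization, the deposited matrix, 2 further filters on dim probes, one probe per gene, robust eBayes with an intensity trend, weights for arrays, a replicate block, and each array left out. For normexp, 6 local backgrounds more than 10 times the array median were set to that median. Slide and scan could not be fitted as blocks, since each held 1 group. The labels name no pairs, so the replicate numbers were not taken as pairs. Deviations of same-numbered mice of the 2 groups correlated only weakly, which cannot show whether mice were paired in handling.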

Additional observations from a re-analysis of the deposited data

Results flagged for a closer look

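In 6 of the 32 groups of 4 arrays examined (16 probes, 2 groups), 1 array lay far from the other 3, with a gap to its neighbour that took up most of the group's range (above Dixon's 95% critical value for 4 samples). Chance gives this in about 1 in 20 independent groups of normal values. The 32 groups share arrays and genes, so their number cannot be tested against that rate. For Ptgds, enalapril 4 stood above the other enalapril mice, at −1.88 against −2.49 for the next (gap 0.857 of the range). For Ptgis, vehicle 1 was the high vehicle mouse, at −3.22 against −3.94 (gap 0.871). Without vehicle 1 the Ptgis change was −1.03 (adjusted p = 0.0893, limma), and the value as reported is −1.22. For Hpgd on A_51_P458781, vehicle 1 was low, at −0.20 against 0.09 (gap 0.971), while the other probe of the gene has vehicle 1 at 0.67, beside 0.68 for vehicle 2. For Pla2g4a on A_52_P660648, enalapril 4 was low, at −1.06 against −0.72 (gap 0.831), and it was also the lowest enalapril mouse on the second probe of that gene, at 0.04. The other 2 gaps are on probes that were not well above background on any array: Hpgd A_52_P859480, enalapril 2 (gap 0.872), and Alox12 A_52_P819886, enalapril 2 (gap 0.969). They are given as values only.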

How the results depend on the processing

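Over all probes 2979 were called as reported. The count was 1981 with median centring, 1548 in the deposited matrix, 1392 without the filter on dim probes and 8534 with array weights, and 410 (without vehicle 1) to 7061 (without enalapril 4) with an array left out. Of the member probes 2 were called as reported, 1 after quantile normalization, median centring, normexp or in the deposited matrix, 0 without the filter, 6 with array weights, and 0 to 4 with an array left out. Without the filter more probes are tested, and with an array left out fewer samples are fitted. The cause of the other differences was not tested.

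The labels number mice 1 to 4 in both groups and name no pairs. Deviations of same-numbered mice correlated at −0.134, 0.077, 0.170 and 0.026. Such low values cannot show whether the mice were paired in handling. With the replicate number as a block, 38 of all probes and 0 member probes were called, with Ptgis at an adjusted p of 0.101 and Alox5ap at 0.0760 (limma). At an unadjusted p under 0.05 in limma, 5 member probes were lower and 1 higher with the block, and 7 and 1 of 16 without the filter. The share of all probes at that threshold was not computed in either setting, so these counts are values only. Not every mouse correlated best with its own number.

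None of the values that changed sign was called. On E1A controls and in the deposited matrix, where the median of all probes lies at −0.39 and −0.41, they were −0.051 and −0.077 for Ptgs2 A_52_P224760, −0.19 and −0.21 for Hpgd A_51_P458778, −0.18 and −0.21 for Ptgir A_51_P202408, −0.16 and −0.19 for Ptgr2 A_52_P229783, −0.15 and −0.18 for Lta4h, −0.021 and −0.048 for Alox12e, −0.11 and −0.13 for Cysltr1, −0.26 and −0.29 for Ptger3 A_52_P677744, and −0.29 and −0.31 for Ptger4. Array weights gave 0.044 for Pla2g4a A_51_P402760 and 0.11 for Alox8. Ltb4r1 was 0.067 after quantile normalization and 0.048 after normexp. With an array left out, values ran from −0.012 to 0.68 for Ptgs2 A_52_P224760, −0.082 to 0.036 for Pla2g4a A_51_P402760, −0.19 to 0.028 for Ltb4r2, −0.24 to 0.046 for Cysltr2, −0.0069 to 0.16 for Ptger3 A_52_P677744, −0.15 to 0.029 for Ltb4r1, −0.60 to 0.26 for Alox8 and −0.093 to 0.29 for Ptger4. Over all other settings of the named probes, 773 values kept direction and side of the threshold, 71 lost the call, 39 gained it and 34 changed sign. The 773 include probes that were never called, and only a probe called as reported can lose a call, so the 71 are not a share of all values. Ptgis kept its call in 9 of 11 other settings and Alox5ap in 5 of 11, and each in 1 of 8 fits with an array left out. Dim probes limit the reading of Ptgs2, Ptgis and A_51_P520310 of Alox12, which lie in the dimmest of 5 intensity classes.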
